A study of Mus musculus with 15 samples.

Results

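The untreated cells of the series were microglia derived from mouse embryonic stem cells (ESdM), sequenced in 6 of its 15 RNA libraries. They were chosen by their labels alone, as the 6 libraries with no stimulus, and are named here by the library numbers of the deposited table, 893 to 898. The stem cells came from a C57BL/6 line of ATCC, and the derived cells were kept in a medium of DMEM/F12 with N2 supplement, glutamine and antibiotics at 37 °C. The other 9 libraries, 3 each for LPS with IFNg, for IL4 and for TGFb over 24 h, gave no level below and bear only on which genes the table holds. The labels name 1 strain and no genetic change, and they do not say whether the 6 libraries came from separate cultures or from separate derivations, so the spread between them may be technical.

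Microglia are the resident macrophages of the brain. They depend on signalling through the receptor of colony-stimulating factor 1 (CSF1), clear debris and dying cells by phagocytosis, and degrade what they take up in lysosomes. In the adult brain their resting state is recognised by a set of homeostatic genes that depends in part on TGF-beta, and near damaged or amyloid-bearing tissue they take on a disease-associated state marked by lysosomal and lipid genes. Cultured microglia are widely known to lose much of the homeostatic set.

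Each value is a normalized read signal per gene and library, which grows with transcript length. Ratios between genes were therefore taken after division by the length of the longest annotated transcript (signal per kilobase). Ranks, shares and the limit for expressed genes that are given by read signal favour long transcripts. The table used here held 11201 genes. The recovered reads came to 2682564 in library 896, the shallowest, and 18676181 in library 898, the deepest, a depth ratio of 6.96, and summed to 44043693. A mean signal of at least 50 was taken as expressed. It was reached by 9427 genes, 84.2% of the table, and each count of expressed list members below stands beside this share. A mean below 10 was found for 429 genes, and 28 had 0 recovered reads in all 6 libraries. Every gene of the table reached at least 11.1 in 1 or more of the 15 libraries. Genes below that in all untreated libraries, such as Mx1, reached it in a stimulated one. Such genes lower the expressed part of any list that holds them. The table says nothing of genes that were low throughout, and a gene outside it was not analysed here.

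All 4 genes taken as markers of the cells were expressed in every library. Gpnmb (chromosome 6, 49036546 to 49070929, GRCm38), which encodes a lysosome-associated glycoprotein of phagocytes, had a read signal between 70150 and 76353 with a median of 72984. Apoe (chromosome 7, 19696109 to 19699188), the main lipid carrier of the brain, lay between 13825 and 17418 with a median of 16031. Csf1r, the CSF1 receptor, lay between 2626 and 2959 with a median of 2787, and Trem2 (chromosome 17, 48346401 to 48354147), a lipid-sensing receptor of myeloid cells, between 1612 and 1767 with a median of 1705. The order of the 4 genes by signal per kilobase was the same as by read signal, with 19759 ± 720 for Gpnmb, 11173 ± 889 for Apoe, 594 ± 29.8 for Csf1r and 354 ± 11.5 for Trem2 (SD, n = 6). In bulk RNA a lower level cannot be told apart from fewer cells that express the gene. Values below are means ± SD over the 6 libraries unless a range is given.

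The promoters of 5 expressed genes of the lysosome, not its 5 most abundant, are shown from RefSeq on GRCm38.p6. Each runs from 250 bases before to 50 bases after the annotated start on its own strand. Capitals mark CACGTG, the palindromic core of the motif bound by Tfeb, Tfe3 and Mitf, or, in Ctsk, the letters GAGGAA on either strand, the core bound by the myeloid factor Spi1 (PU.1). Both motifs were chosen for what these factors are known to bind in lysosomal and myeloid genes.
Ctsd: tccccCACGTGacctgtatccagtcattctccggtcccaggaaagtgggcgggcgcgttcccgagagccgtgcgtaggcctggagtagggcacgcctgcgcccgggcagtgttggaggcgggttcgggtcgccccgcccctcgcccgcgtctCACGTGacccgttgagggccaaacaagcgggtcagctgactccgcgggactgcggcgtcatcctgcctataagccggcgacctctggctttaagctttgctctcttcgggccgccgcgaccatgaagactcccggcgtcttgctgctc
Lamp1: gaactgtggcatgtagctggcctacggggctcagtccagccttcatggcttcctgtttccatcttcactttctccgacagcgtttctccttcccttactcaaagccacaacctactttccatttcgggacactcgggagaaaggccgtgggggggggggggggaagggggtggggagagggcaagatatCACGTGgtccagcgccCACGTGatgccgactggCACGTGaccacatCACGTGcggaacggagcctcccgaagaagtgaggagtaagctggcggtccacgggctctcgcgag
Atp6v1a: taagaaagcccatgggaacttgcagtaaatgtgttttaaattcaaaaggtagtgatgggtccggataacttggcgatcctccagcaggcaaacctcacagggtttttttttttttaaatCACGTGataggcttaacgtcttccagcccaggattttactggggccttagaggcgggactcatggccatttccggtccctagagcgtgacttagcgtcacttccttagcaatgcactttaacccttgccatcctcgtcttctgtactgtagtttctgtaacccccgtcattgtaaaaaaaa
Ctsk: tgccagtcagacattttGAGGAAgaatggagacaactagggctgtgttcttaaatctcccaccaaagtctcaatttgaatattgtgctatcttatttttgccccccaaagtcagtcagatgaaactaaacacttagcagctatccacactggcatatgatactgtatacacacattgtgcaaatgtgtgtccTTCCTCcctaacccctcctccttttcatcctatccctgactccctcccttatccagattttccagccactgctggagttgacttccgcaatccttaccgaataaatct
Gpnmb: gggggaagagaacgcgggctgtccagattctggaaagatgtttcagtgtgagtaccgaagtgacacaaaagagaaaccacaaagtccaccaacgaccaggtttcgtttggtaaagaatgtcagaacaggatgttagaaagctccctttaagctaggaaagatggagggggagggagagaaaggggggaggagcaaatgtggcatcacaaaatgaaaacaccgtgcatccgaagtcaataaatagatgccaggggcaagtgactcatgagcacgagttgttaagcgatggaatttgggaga
The promoter of Ctsd (chr7:142387778-142388077, minus strand), which encodes the protease cathepsin D, held 2 copies of CACGTG. That of Lamp1 (chr8:13158911-13159210, plus strand), a lysosomal membrane protein gene, held 4 copies within the last 61 bases before the start. Atp6v1a (chr16:44139210-44139509, minus strand), a subunit of the proton pump that acidifies lysosomes, held 1 copy, 131 bases before the start. Ctsk (chr3:95498960-95499259, plus strand), the gene of cathepsin K, held no CACGTG and 2 matches to GAGGAA, while Gpnmb (chr6:49036268-49036567, plus strand), the gene with the highest read signal, held 0 matches to CACGTG in this window.

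Across lists, CACGTG stood in the promoters of 8 of 27 matched lysosome genes (29.6%) and of 4 of 11 matched proton pump genes (36.4%). It stood in 12.2% of the 8535 table genes with a RefSeq promoter, in 17.6% of the 68 with a promoter among the 100 genes highest per kilobase, in 5.12% of the 293 genes with a mean below 10 and in 8.09% of all 27025 genes of the promoter table. Among cathepsin genes Ctsa, Ctsd, Ctsf and Ctsl held the motif, whereas Ctsk, Ctss, Ctsz, Ctsc and Ctso did not. Of the matched lysosome genes higher per kilobase than Lamp1, Ctsd held it, whereas Ctsk, Psap, Ctsz, Cd68, Lyz2 and Grn did not. GAGGAA, a short and common string, stood in 48.1% of the matched lysosome promoters, in 18.2% of the proton pump promoters and in 30.6% of those of the table genes. These are matches of letters in both strands, with no test of binding.

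Gpnmb had the highest read signal in all 6 libraries, 73128 ± 2665, and alone held 0.985% ± 0.025 of the total. The 15 genes highest by read signal joined iron storage, translation, lysosomal, lipid and cytoskeletal genes. Ferritin light chain Ftl1 (60290 ± 2361) and ferritin heavy chain Fth1 (57180 ± 1747), which together form the iron storage shell, came next with the elongation factor gene Eef1a1 (56906 ± 2967), and these 3 changed places between libraries, with ranks from 2 to 4. Spp1, which encodes the secreted matrix protein osteopontin, had rank 5 in each library at 47216 to 54503. The others were the fatty acid desaturase gene Scd2 (42156 ± 1921), the protease genes Ctsk (41552 ± 1962) and Ctsd (31487 ± 1074), the intermediate filament gene Vim (31140 ± 1998), Eef2, the saposin precursor gene Psap, the chaperone genes Hsp90ab1 and Hspa8, Actb and the glycolytic gene Pkm (20440 ± 654).

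Per kilobase the order was another. Ftl1 led at 62283 ± 2439, before Spp1 at 34351 ± 1667, Eef1a1 at 31720 ± 1654, Fth1 at 27730 ± 847 and Ctsk at 27482 ± 1298, and Gpnmb had rank 6 at 19759 ± 720. The means of Fth1 and Ctsk per kilobase differed by less than 1 SD. Short transcripts moved up on this scale, among them those of the ribosomal protein Rpl8 (15004 ± 822), the galectin Lgals3 (12940 ± 608), which binds damaged lysosomes, and the metallothionein Mt2 (12585 ± 341), which binds zinc and copper. Apoe had rank 13 at 11173 ± 889. Of these 15 genes 2 were processed pseudogenes, Gm12070 (11881 ± 473) and Atp6v0c-ps2 (11003 ± 1153), and the ferritin, elongation factor and ribosomal protein genes also have near-identical copies, so the division of reads within each of these families is uncertain. The pump gene Atp6v0c stood at 1031 ± 231 per kilobase beside its pseudogene. With the median in place of the longest transcript length, 9 of the 15 genes were kept. Orders per kilobase below are those of the longest transcript. Genes with many short transcripts moved far with the median length, among them Lrp1, to 19260 in place of 999, and Ctsb, to 12954 in place of 3466.

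**Figure D1:**
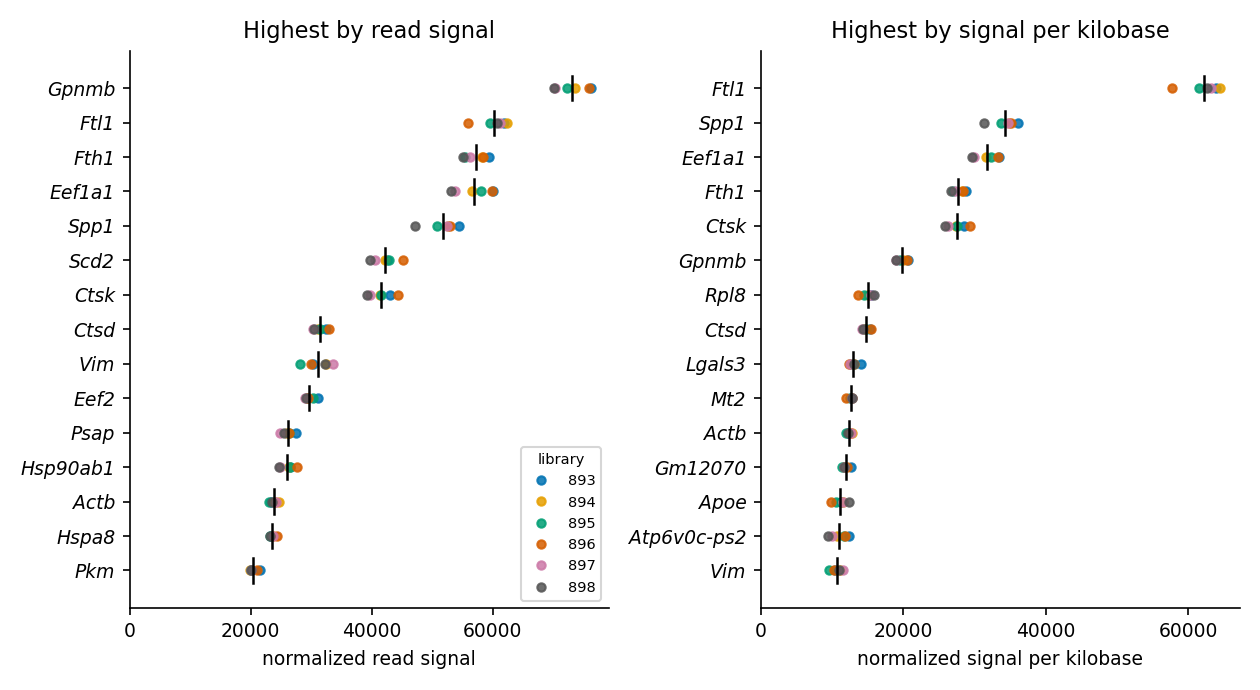
Normalized read signal (left) and signal per kilobase of the longest transcript (right) of the 15 genes highest on each scale, with 1 point per untreated library and a black line at the mean of 6. Gpnmb leads by read signal (70150 to 76353) and has rank 6 per kilobase, where Ftl1 leads.

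The signal was spread over many genes, and the 6 libraries had nearly the same concentration. The 10 highest genes held 6.4% ± 0.101 of the read signal, the 100 highest 19.3% ± 0.179 and the 1000 highest 51.3% ± 0.359. It took 939 ± 16.6 genes to reach 50% of the signal and 5148 ± 62.6 to reach 90%. Per kilobase the concentration was higher, with 9.27% ± 0.127 in the 10 highest genes, 27% ± 0.25 in the 100 highest and 515 ± 10.1 genes for 50%. Protein-coding genes held 97.5% ± 0.0407 of the read signal, pseudogenes 0.914% ± 0.0269 and noncoding genes other than ribosomal RNA 0.686% ± 0.0255. Rn45s, the ribosomal RNA precursor, held 0.259% ± 0.044, with a read signal between 15526 in library 897 and 24691 in library 894.

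**Figure D2:**
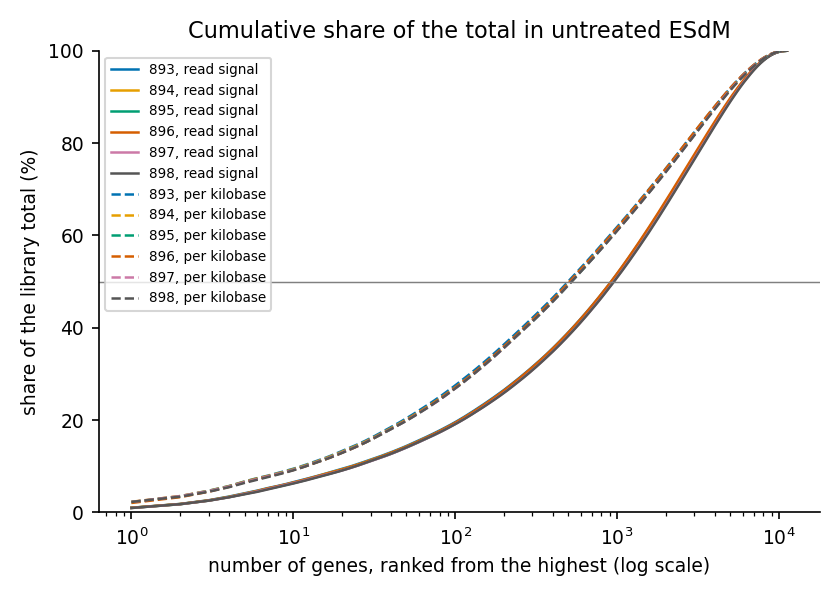
Cumulative share of each library's total (%) against the number of genes ranked from the highest (log scale), with solid lines for read signal, dashed lines for signal per kilobase and a grey line at 50%. The 6 libraries lie on each other, crossing 50% at 918 to 958 genes by read signal and at 499 to 524 genes per kilobase.

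The homeostatic list stood low or was absent for its best-known members. Of its 25 genes, 15 were listed in the table and 11 of these were expressed, where 84.2% of all table genes were. Lgmn, an asparaginyl endopeptidase of lysosomes, was the highest at 2146 ± 75.6 per kilobase. Gas6, a bridge to dying cells, stood at 944 ± 31.5 and Bin1, a membrane-bending protein, at 390 ± 20.6. The TGF-beta receptor gene Tgfbr1 (79 ± 5.67 per kilobase) and the transcription factor gene Mef2c (69.5 ± 6.71) were also expressed.

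The fractalkine receptor gene Cx3cr1 had 3 reads in library 893, 5 in library 897, 4 in library 898 and 0 in the other libraries, 12 of 44043693 in all. Tmem119, a microglial membrane protein, had a read signal of 3.77 to 11.2 (median 7.77) and the lysophospholipid receptor Gpr34 one of 5.52 to 15.8 (median 8.52). Olfml3 had 1 recovered read in all, in library 897. These 4 genes lay below 50 in every library. P2ry12, P2ry13, Sall1, Siglech, Fcrls, Sparc, Slc2a5, Pros1, Crybb1 and Ltc4s were not analysed here.

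The disease-associated list was expressed nearly in full. Of its 25 genes 23 were listed and 22 were expressed, where 84.2% of all table genes were. A mean of at least 1000 was reached by 20 genes of the list and by 1759 of all 11201 table genes. The members of the list held 3.52% ± 0.0667 of the read signal, and the homeostatic members 0.166% ± 0.00147. The 2 lists have 23 and 15 genes in the table, so sums over them are not levels per gene. Their members were chosen with earlier results of these data known. Summed per kilobase, the disease-associated list was 24.3 ± 0.363 times the homeostatic list, between 23.8 and 24.6 in the 6 libraries, and 5 genes, Spp1, Gpnmb, Ctsd, Lgals3 and Apoe, made up 71.3% ± 0.541 of the disease-associated sum. Without them the ratio was 6.96 ± 0.192. Beside those, Cd68, a lysosomal glycoprotein of phagocytes, stood at 6385 ± 291 per kilobase, Lpl, lipoprotein lipase, at 1188 ± 40.8, the integrin gene Itgax at 663 ± 29.4, the cystatin gene Cst7 at 428 ± 21 and the growth factor gene Igf1 at 229 ± 11.1. Clec7a, the beta-glucan receptor and a common label of the state, was low, with a read signal of 64.9 to 84.1 (median 72), and Cd52, a surface glycoprotein of leukocytes, lay at 12.9 to 30.8 (median 19.2).

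**Figure D3:**
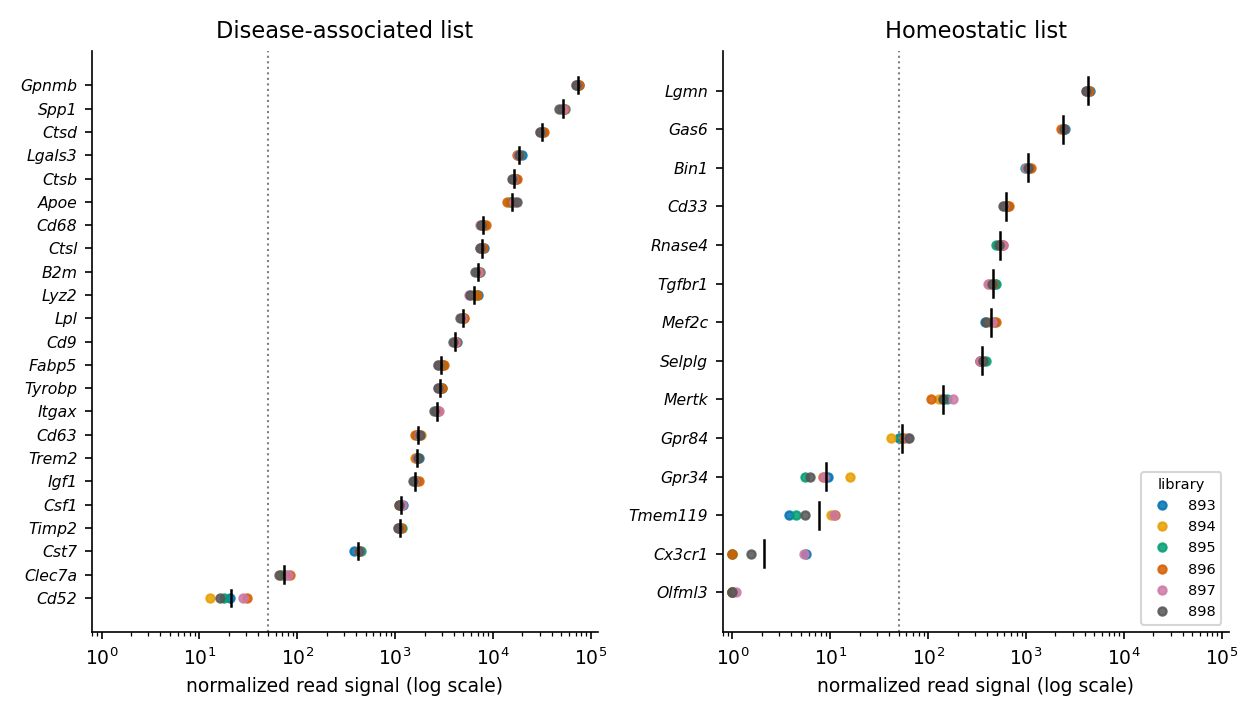
Normalized read signal (log scale) of genes of the disease-associated (left) and homeostatic (right) lists that are reported here, with 1 point per untreated library, a black line at the mean of 6 and a dotted line at 50; values at the floor of the deposited table are drawn at 1 and count as 0 in the mean. Of the disease-associated genes 22 lie above the dotted line, and 4 of the homeostatic genes lie below it in every library.

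Of 34 myeloid transcription factors 30 were in the table and 27 were expressed, where 84.2% of all table genes were. Bhlhe40, a regulator of macrophage proliferation and lipid genes, stood at 950 ± 49.1 per kilobase and Spi1, the master factor of the myeloid lineage, at 739 ± 33. Irf5 (306 ± 13.4) and Irf8 (175 ± 13.6), interferon regulatory factors of myeloid cells, were lower. Of the factors of lysosomal genes, Tfe3 stood at 152 ± 7.84 per kilobase, Tfeb at 71.4 ± 13.4, Mitf at 66.7 ± 4.48 and Tfec at 34.3 ± 4.99, and the values of Tfeb and Mitf overlapped within their SD. Rxra, a partner of many nuclear receptors, stood at 381 ± 12.6, the oxysterol receptor genes Nr1h2 at 181 ± 28.9 and Nr1h3 at 54 ± 8.85, and Pparg had 24 reads, 11 of them in library 895.

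Of 17 genes of a list of myeloid growth factors and their receptors, 11 were in the table. Of these 8 were expressed, where 84.2% of all table genes were. The receptor genes Acvrl1 and Eng were below the limit, with a mean read signal of 26.7 and 23.7, and Csf3r and Flt3 were not analysed here. Of the 2 CSF1 receptor ligands 1 was expressed. The receptor genes Csf2rb, the common beta chain of the GM-CSF, IL3 and IL5 receptors (746 ± 36.4 per kilobase), and Csf1r (chromosome 18, 61100598 to 61132149; 594 ± 29.8 per kilobase) led, followed by Csf2rb2 (358 ± 13.6), a close relative of Csf2rb with which it may share reads. The ligand gene Csf1 was expressed, at a read signal between 1098 and 1192 (median 1141), whereas Il34, the other ligand, lay between 1 and 10.1 (median 7.29). Tgfb1, the TGF-beta ligand gene, stood at 359 ± 35.4 per kilobase, Tgfbr1 at 79 ± 5.67 and Tgfbr2 at 66.6 ± 2.98.

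Of 16 listed complement genes 6 were expressed, a smaller part than the 84.2% of all table genes. Members such as C1qb are in the table only by their level in a stimulated library, which lowers this part. The receptor chains Itgax (663 ± 29.4 per kilobase), Itgb2 (418 ± 14.3) and Itgam (388 ± 21) were expressed, as were the central component C3 (249 ± 13), the properdin gene Cfp (343 ± 22.4) and the anaphylatoxin receptor C3ar1 (175 ± 13.9). The C5a receptor genes C5ar1 and C5ar2 had a mean read signal of 22.3 and 8.02, and the surface lectin gene Cd93 one of 3.69. The initiating C1q subunits were near 0, with 2 recovered reads for C1qb and 6 for C1qc in all 6 libraries together, and C1qa was not analysed here. All 6 listed Fc receptor genes were expressed, led by the shared signalling chain Fcer1g (3029 ± 116) and Fcgr3 (1208 ± 57.3).

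Among uptake receptors 13 of 16 listed genes were expressed, near the 84.2% of all table genes. Mfge8, which bridges dying cells to integrins, stood at 4657 ± 100 per kilobase, Lrp1, a large endocytic receptor, at 999 ± 22.8 and the mannose receptor gene Mrc1 at 899 ± 47.8, while Mertk, which receives Gas6, stood at 33.1 ± 5.62. Of 19 genes in a list of phosphoinositide and TREM2 signalling 17 were in the table. All 17 were expressed, where 84.2% of all table genes were. They included the adaptor gene Tyrobp (4858 ± 222), the inhibitory receptor gene Sirpa (3961 ± 163), Plcg2 (509 ± 17.5) and the kinase gene Syk (187 ± 9.38). Inpp5d, a phosphatase that opposes TREM2 signalling, stood at 430 ± 10.6.

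Toll-like receptor genes spanned a wide range. All 21 genes of the list were in the table and 16 were expressed, where 84.2% of all table genes were. Tlr13, a sensor of bacterial ribosomal RNA, had the highest level of a Toll-like receptor gene at 298 ± 19.4 per kilobase. Tlr2 stood at 173 ± 12.3, Tlr7 at 141 ± 8.34 and Tlr4 at 139 ± 6.17. With the median transcript length Tlr13 stood at 550, Tlr4 at 450, Tlr7 at 286 and Tlr2 at 173. The trafficking chaperone gene Unc93b1 stood at 514 ± 49.2. Tlr3, a sensor of double-stranded RNA, had a read signal of 2.8 to 8.63 (median 7.31) and Tlr8 one of 2.8 to 7.54 (median 4.31). Of 20 purinergic and chemokine receptor genes 9 were listed and 4 were expressed, a smaller part than the 84.2% of all table genes. They were the ATP-gated channels P2rx4 (195 ± 13.8) and P2rx7 (95.9 ± 4.91), Cxcr4 (192 ± 20.6) and the nucleotidase gene Entpd1. Cx3cr1 is in the table only by its level in a stimulated library, which lowers the expressed part of this list.

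Of 18 listed cytokine genes 14 were expressed, where 84.2% of all table genes were. The genes of interleukin 1 were low, since Il1b had a read signal of 1.89 to 9.93 (median 6.51) and Il1a 10 reads in all. Tnf, the gene of a central inflammatory cytokine, lay at 159 to 187 (median 180). Of 13 listed chemokine genes 4 were expressed, a smaller part than the 84.2% of all table genes. They were Ccl3 (627 ± 46.5 per kilobase), Ccl4 (122 ± 16), Ccl2 (50.3 ± 11) and Ccl9 (43.3 ± 2.5). Ccl8, Ccl12 and Cxcl11, with 0 recovered reads, are in the table only by their level in a stimulated library. This lowers the expressed part of the chemokine list. Grn, the gene of the growth factor progranulin, stood at 3995 ± 64.7 and Mif, which encodes the inflammatory macrophage migration inhibitory factor, at 3405 ± 549.

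Of 21 listed interferon response genes 9 were expressed, a smaller part than the 84.2% of all table genes. The highest were the restriction factor gene Bst2 (537 ± 50.1 per kilobase) and Ifitm3 (439 ± 31.2). Members such as Mx1 are in the table only by their level in a stimulated library, which lowers this part. The antiviral genes Mx1, Rsad2 and Ifi44 had 0 recovered reads of 44043693. Up to 2 reads of a gene can lie under the floor in library 898. The limit of up to 3 reads by counting error alone therefore holds only for the other libraries. The 13 genes of a list of MHC class I and peptide loading were all expressed. B2m stood at 8223 ± 303 and H2-D1, which has near-identical relatives, at 2880 ± 119 per kilobase. Of 6 listed class II genes 2 were expressed, again a smaller part than the 84.2% of all table genes. They were the invariant chain gene Cd74 (159 ± 16.1) and H2-DMb1 (53.8 ± 7.5), while H2-Aa had 0 recovered reads and the class II transactivator gene Ciita 1. H2-Aa and Ciita are in the table only by their level in a stimulated library, which lowers the expressed part of the class II list.

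The degradative machinery was expressed for every list member in the table, and the cathepsin gene Ctsh was not analysed here. All 34 listed genes of cathepsins, hydrolases and lysosomal membrane proteins were expressed, where 84.2% of all table genes were. Of the 34, 27 had a mean of at least 1000, which 1759 of all 11201 table genes reached. Together the 34 held 2.95% ± 0.0634 of the read signal. Ctsk, a collagen-degrading protease best known from osteoclasts, led at 27482 ± 1298 per kilobase, before Ctsd (14804 ± 505), Psap (9825 ± 342), Ctsz (6754 ± 183), Cd68, the lysozyme gene Lyz2 (4850 ± 409), Grn, Ctsb (3466 ± 145), Lamp1 (3268 ± 131) and Ctss (2008 ± 112). All 16 proton pump genes were expressed, among them Atp6v1g1 (2101 ± 76.1), Atp6v1b2 (2065 ± 79), Atp6v0b (1940 ± 82) and Atp6v1a (1465 ± 47). A list of osteoclast genes, chosen after the level of Ctsk was seen, had 6 of 12 members in the table and 4 expressed. Beside Ctsk they were Nfatc1 (83.4 ± 4.41), Atp6v0d2 (79.4 ± 12.3) and the RANK receptor gene Tnfrsf11a (47.2 ± 3.95), while Ocstamp (4.49 ± 1.36) and Mmp9 (4.25 ± 1.96) were near the bottom.

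Of 21 listed lipid handling genes 18 were expressed, near the 84.2% of all table genes. After Apoe came Scd2, a stearoyl-CoA desaturase (7728 ± 352 per kilobase), the lipid droplet coat gene Plin2 (2595 ± 110), the cholesterol exporter gene Abca1 (1188 ± 47.8), Lpl (1188 ± 40.8) and Lrp1 (999 ± 22.8). Scd1, a close relative of Scd2, stood at 0.95 ± 0.279 per kilobase, with 26 reads in all. All 19 listed cholesterol synthesis genes were expressed.

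Beside the 84.2% of all table genes, 10 of 11 listed iron genes were expressed. Besides the 2 ferritin chains they included the heme transporter gene Slc48a1 (1557 ± 70.1 per kilobase), heme oxygenase Hmox1 (1326 ± 71.9), the ferritin receptor gene Ncoa4 (874 ± 35.9), the transferrin receptor gene Tfrc (665 ± 35.9) and the iron exporter gene Slc40a1 (59.8 ± 6.16). All 7 subunits and partners of the phagocyte NADPH oxidase were expressed, with Cyba at 3672 ± 157 and Cybb at 911 ± 54, and 15 of 16 antioxidant genes, with Prdx1 at 4112 ± 217. The exception was Nqo1, a quinone reductase, at a read signal of 34.2 to 52.8.

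The cells expressed the genes of division. Of 35 cell cycle genes 33 were listed and all 33 were expressed, where 84.2% of all table genes were. The proliferation marker Mki67 had a read signal of 3809 to 4057 (median 3953) and the topoisomerase gene Top2a one of 3431 to 3662 (median 3557). Per kilobase, the replication clamp gene Pcna stood at 1377 ± 26.3, Cdk4 at 1178 ± 32.2, the cell cycle inhibitor gene Cdkn1a at 1020 ± 59, Top2a at 680 ± 21.8, Ccnd1 at 454 ± 23.3 and the inhibitor gene Cdkn1b at 16.3 ± 2.07. All 27 listed nuclear genes of the respiratory chain, all 16 listed glycolytic genes and all 82 cytosolic ribosomal protein genes were expressed, the last holding 3.26% ± 0.0503 of the read signal. Genes of the mitochondrial genome were not analysed here.

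Most structural and housekeeping lists were expressed nearly in full as well, beside 84.2% of all table genes. Of 19 actin cytoskeleton genes 18 were expressed, with Actb at 12398 ± 315 per kilobase, the actin-capping gene Capg at 4080 ± 126 and the actin monomer binder Tmsb4x at 3611 ± 180. The exception was Aif1, which encodes the common microglial stain IBA1, at a read signal of 17.3 to 34 (median 23.2). Its transcript is short, and per kilobase it stood at 28.3 ± 8.89, above Cdkn1b (16.3 ± 2.07), which passed the limit on read signal. All 13 translation factor genes were expressed, with the poly(A)-binding protein gene Pabpc1 at 4067 ± 97, and 17 of 19 listed chaperone genes, with Calr at 5191 ± 228 and Hspa5 at 3003 ± 86.9. Of 9 listed integrin genes 8 were expressed, among them Itgb1 (545 ± 33.3) and Itga4. Of 18 listed protease and inhibitor genes 13 were expressed, led by the cystatin genes Cstb (3251 ± 180) and Cst3 (3053 ± 386) and the urokinase gene Plau (2568 ± 107). Of 17 listed channel genes 15 were expressed, with Clic1 at 1645 ± 57.1. A list of S100 proteins, galectins, annexins and metallothioneins, put together after Lgals3 and Mt2 were seen among the highest genes, had all 15 members expressed, with S100a4 at 9259 ± 498, Mt1 at 9092 ± 560 and Lgals1 at 7310 ± 261.

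Of 16 listed immediate early genes 12 were expressed, with the stress factor gene Atf3 at 703 ± 21.4 per kilobase, Jun at 270 ± 42.2 and Fos at 52.9 ± 4.9. Of 5 listed imprinted genes 3 were expressed, led by Igf2r (477 ± 14), the receptor that carries enzymes to lysosomes. Of 6 listed matrix genes 4 were expressed, Spp1 among them, with the laminin chain Lamc1 at 597 ± 21.6. All 19 listed mouse counterparts of genes of Alzheimer risk or dementia were expressed, led by Apoe, Grn and Ctsb. Across all 50 lists, 84.7% of the listed members were expressed, near the 84.2% of all table genes.

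Of the 139 genes in 12 lists of other cell types, 26 were in the table and 12 were expressed, where 84.2% of all table genes were. No gene of the pluripotent cell, fibroblast, lymphocyte or erythroid lists was in the table, and those 4 lists were not analysed here. The expressed genes were Vim from the neural progenitor list, Flt1, a VEGF receptor (522 ± 29.5 per kilobase), from the endothelial list, the glutamine synthetase gene Glul (541 ± 22.1) and Aldoc (528 ± 22.2) from the astrocyte list, Cd44 (358 ± 21.2), Itga4 (331 ± 15.5), Nr4a1 and F10 from the monocyte list, Cd74 from the dendritic cell list, Syn1 (60.4 ± 6.86) and Elavl4 (20.3 ± 4.02) from the neuron list and Cnp (56.6 ± 6.08) from the oligodendrocyte list. Several of these, such as Vim, Cd44, Itga4 and Cd74, are also known from macrophages. Among the 14 listed genes below 50, Pecam1, an endothelial adhesion gene, had 8 reads and Ly6c1 from the monocyte list 0 recovered reads. Other members of these lists, such as Gfap, Tubb3, Cdh5 and Ccr2, were not in the table. The summed level of the listed neuron genes was 72.2 to 87.7 per kilobase, that of the astrocyte genes 1019 to 1106 and that of the monocyte genes 807 to 890. The part of other cells in any value was not tested.

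**Figure D4:**
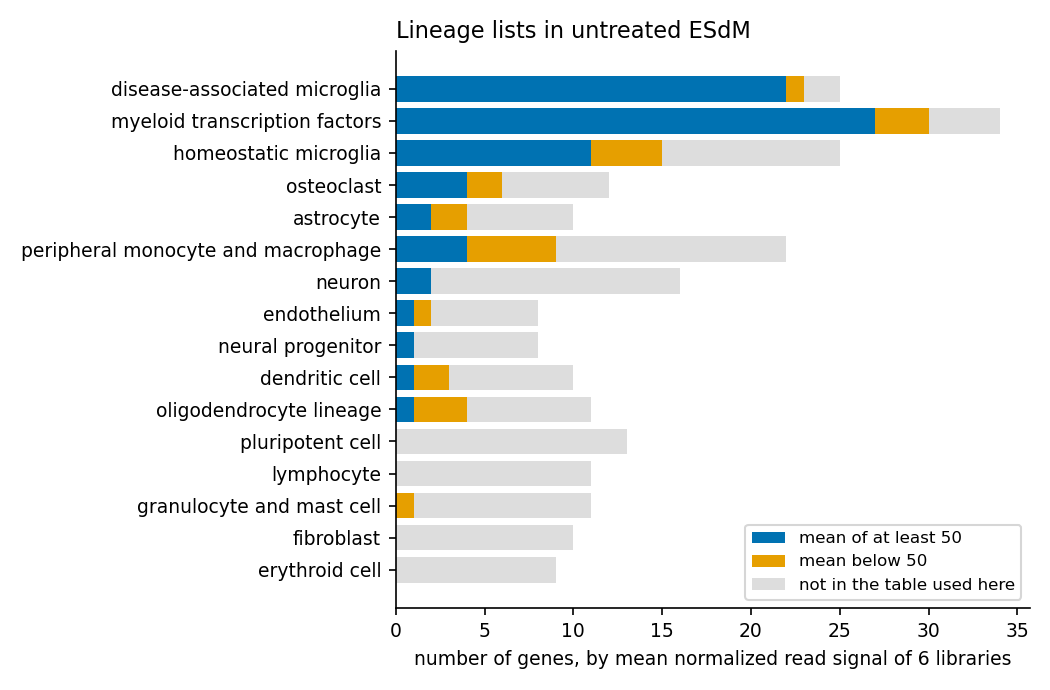
Number of genes in each lineage list, divided by mean normalized read signal over the 6 untreated libraries into at least 50 (blue), below 50 (orange) and not in the table used here (grey). The myeloid factor list has 27 and the disease-associated list 22 genes at or above 50, and 4 lists have no gene in the table.

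Within the cells, 13 pairs of related genes were compared per kilobase by an exact two-sided sign-flip permutation test over the 6 libraries. Every pair kept 1 order in 6 of 6 libraries. Each had an exact p = 0.03125 in this test (Benjamini-Hochberg adjusted p = 0.03125), the smallest that 6 libraries can give. Most ratios were far larger than their SD, so the test could hardly have come out otherwise. It also takes the libraries as separate, which the labels do not say. No conclusion is drawn from the p-values, and the sizes carry the comparison. The mean log2 ratio was 0.83 ± 0.15 for Gpnmb over Apoe, 4.98 ± 0.12 for Apoe over Trem2 and -3.78 ± 0.08 for Trem2 over its adaptor Tyrobp. The log2 ratio of Cd68 over Itgam was 4.04 ± 0.07, that of Spi1 over Irf8 2.08 ± 0.08 and that of Ctsd over Ctsb 2.09 ± 0.02.

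Several ratios rest on the transcript length used. With the median transcript length the log2 ratio of Apoe over Trem2 was 3.60, that of Trem2 over Tyrobp -1.67, that of Ctsd over Ctsb 0.34, that of Nr1h3 over Nr1h2 -3.05 in place of -1.74 ± 0.23 and that of Itgam over Itgax -2.56 in place of -0.78 ± 0.06. With merged exons Spi1 over Irf8 was 2.70. Tlr4 over Tlr2, at -0.32 ± 0.06, turned to 1.38 with the median length, and Tgfbr1 over Tgfbr2, at 0.25 ± 0.11, was 1.41 with it and no longer passed with merged exons (0.08), so no order is given for those 2 pairs. The log2 ratios of Csf1 over Il34 (6.20 ± 0.86) and of Csf1r over Cx3cr1 (9.75 ± 0.83) were set by the added value of 1 in libraries without reads of the lower gene.

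For most genes the 6 libraries differed little more than counting reads would give. For the 9427 expressed genes the median SD of log2(value + 1) between libraries was 0.099, where counting alone gave 0.091, and 783 genes (8.31%) had an SD over 2 times the counting value. The median SD was 0.172 for genes with a mean between 50 and 200, where counting gave 0.162, 0.092 between 200 and 1000 (counting 0.084), 0.061 between 1000 and 5000 (counting 0.044) and 0.053 for the 151 genes above 5000 (counting 0.020). In the same order 4.13%, 5.06%, 18.8% and 78.1% of genes were over 2 times counting, a share that depends on level because the counting SD falls with it. Pairs of libraries gave a chi-square of recovered reads per degree of freedom of 1.42 to 2.94 over 15 pairs, where counting alone gives about 1, so none of the libraries repeats another within counting noise.

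**Figure D5:**
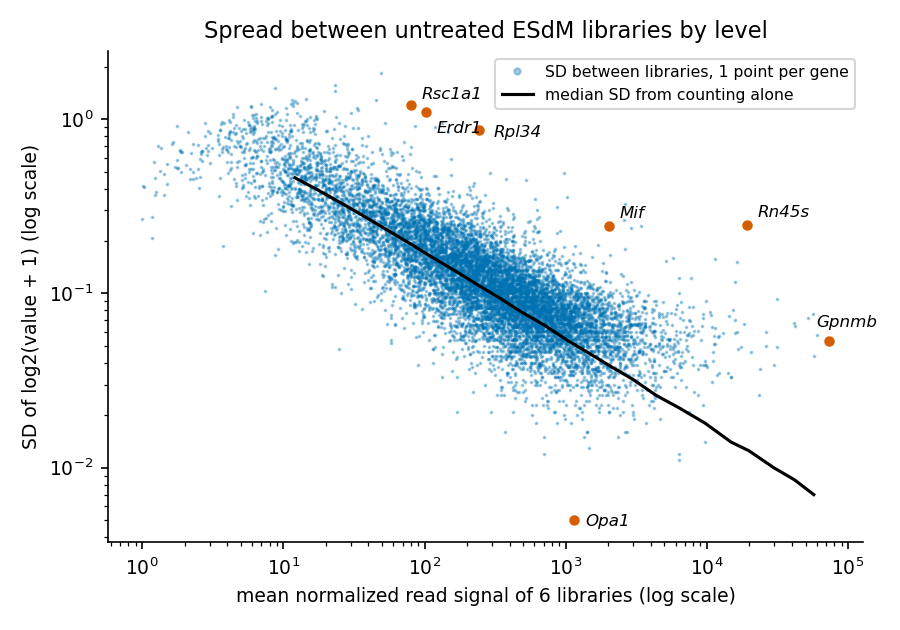
SD of log2(value + 1) over the 6 untreated libraries against the mean normalized read signal, both on log scales, with 1 blue point per gene; the black line is the median SD that counting alone gives. The genes follow the line at low levels and lie above it at high levels, and Rsc1a1, Erdr1, Rpl34, Mif, Rn45s, Gpnmb and Opa1 are marked.

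The genes of largest spread were low ones. Rsc1a1 and Rpl34 differed in their pattern across libraries, while Erdr1 and Hist2h2aa1 were both lowest in library 896 and highest in library 898. Rsc1a1 had a read signal of 183 in library 893, 146 in library 895 and 19.5 to 50.4 in the others, with an SD of 1.205 against a counting SD of 0.192. Erdr1 lay at 19.6 in library 896 and at 81.7 to 184 in the others. Rpl34, a ribosomal protein gene, stood at 396 in library 895 and 492 in library 898, and at 115 to 164 in the other 4. The next were Raver1-fdx1l, Naip7, Scand1 and the histone genes Hist2h2aa1 (56 to 276) and Hist1h4i (39.2 to 121). The histone and ribosomal protein genes have near-identical copies, so the division of reads within these families is uncertain. At the other end Opa1, a mitochondrial fusion gene, had 1149 to 1159 in all 6 libraries, an SD of 0.005 against a counting SD of 0.051. Of better-known genes, Junb, an immediate early transcription factor gene, had a read signal of 157 in library 896, 233 in library 895, 275 in library 893, 311 in library 894, 369 in library 897 and 403 in library 898. Jund, Ier2, Mif and the histone gene Hist2h2aa1 were likewise lowest in library 896 and highest in library 897 or 898, with 154 to 324 for Jund, 134 to 267 for Ier2 and 1552 to 2391 for Mif. Jun was lowest in library 893 (734), next in library 896 (740), and highest in library 898 (1040).

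Library 896, the shallowest, stood farthest from the rest, with a root mean square log2 difference of 0.214 from the mean of the other 5, where the others had 0.135 to 0.161, and 27 genes off by more than 1 on the log2 scale. It lay at -10.28 on the first principal component, which held 42.9% of the variance, opposite to library 898, the deepest, at 5.18. In library 896 genes of low GC content stood by the median 0.054 above the other libraries and genes of high GC content 0.033 below on the log2 scale, with values of -0.060 and 0.025 in library 898. Depth was set against 6 measures of composition. Over the 6 libraries the share of the 10 highest genes had r = -0.841 with recovered reads (exact permutation p = 0.0403, adjusted p = 0.0792) and Spearman's rho = -0.943 (exact permutation p = 0.0167, adjusted p = 0.05), and Gpnmb had r = -0.854 (exact permutation p = 0.00972, adjusted p = 0.0583) and rho = -0.943 (exact permutation p = 0.0167, adjusted p = 0.05). Without libraries 896 and 898, r was -1 and -0.955. None of the 6 such relations had an adjusted p below 0.05, and the sizes were small, since the share moved between 6.27% and 6.55%. The labels give no batch, so depth cannot be told apart from other differences between libraries.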

How the data were processed

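RNA of 6 untreated ESdM libraries was analysed. Per the labels' protocols, TRIZOL extracts of total RNA were turned into TruSeq libraries, and per the submitters' processing notes TopHat2 2.0.3, Partek 6.6, R 3.0.2 and DESeq2 were used with mm10. The gene annotation, the counting rule and the use of strand are not given in the sources used here. The deposited table holds a normalized signal, in which, from the values, each library's counts were scaled by a constant of its own and anything under 1 was raised to 1. Of the values above 1, 100% were whole multiples of that constant, within 0.02 reads or the rounding of the file. Values at the floor were counted as 0 in means, and stand for at most 2 reads in library 898.

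Gene lengths and positions came from GENCODE M21 (GRCm38) for 11093 genes (99.0%), 411 of them through older symbols. Logarithms were taken of the value + 1. Shares, ranks, list sums and spread were computed with Python 3.11.15, pandas 2.3.3, numpy 2.4.6 and scipy 1.17.1. Pairs were tested by exact sign-flip permutation, and 3 of 16 fixed pairs had a gene not analysed here. Recovery of reads was tested on simulated data. The chi-square used genes with at least 20 reads in a pair. Named genes were the markers, the 15 highest on each scale, the 6 highest members of each list, members of lists of 8 or fewer, pair genes and the 10 of largest and smallest spread; Rn45s, Mif, Jun, Jund, Junb, Ier2 and list members at low levels were named after their values were seen, and a few of the genes so chosen are not reported here. The members and lists were chosen with earlier results of these data known. Of 843 genes in 50 lists, 621 were in the table and 526 of those were expressed; 2 further lists were added after values were seen. Replicate numbers follow accession order and pair nothing. Reads carry no molecular identifiers, so counting limits cover counting error only. All 15 value columns were mapped and 0 were left out.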

Additional observations from a re-analysis of the deposited data

Results flagged for a closer look

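Of 262 values looked at, 13 had 1 library apart from the other 5 by a gap wider than chance gives in about 1 of 20 groups, so this number is near what chance gives. Library 893 was the high one for the summed level of the NADPH oxidase list (6861 per kilobase, with 6393 to 6568 in the others), for the S100, galectin and metallothionein list (67874, with 63407 to 64880), for H2-D1 (6528, with 5808 to 6044) and for Lgals1 (6245, with 5658 to 5842), and the low one for Cst7 (383, with 423 to 445). Library 896, the shallowest, was the low one for Gas6 (2253, with 2408 to 2492) and Tfe3 (869, with 959 to 1007) and the high one for the log2 ratio of Csf1 over Il34 (7.89, with 5.5 to 6.27), where Il34 had 0 reads. Library 895 was low for the summed nuclear respiratory chain (43852 per kilobase, with 45477 to 46443) and high for Pparg (12.1, with 1 to 3.52) and for Ciita (1.1, which is 1 read, with the others at the floor of 1). Library 894 was high for the log2 ratio of Tlr4 over Tlr2 (-0.199, with -0.374 to -0.326). Olfml3 stood at 1.08 in library 897, which is 1 read, and at the floor in the others.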

How the results depend on the processing

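The shares, ranks and list sums were unmoved beyond their SD when each library was left out in turn. Leaving out 1 library cannot move a mean over the libraries by as much as 1 SD. That comparison could therefore not have come out otherwise, and no conclusion on stability is drawn from it. Per kilobase the share of the 10 highest genes was 9.27%, of the 100 highest 27% and of the 1000 highest 61.3%, with 515 genes for 50%, by construction of another scale. Without ribosomal protein genes in the total the first 2 shares were 6.62% and 19.6%. With the median transcript length 9 of the 15 genes highest per kilobase were kept, and the ratio of the disease-associated to the homeostatic list was 27.2 in place of 24.3, or 22.5 with merged exons. Of 47 list sums 43 moved by more than 1 SD with either length. With the median length the log2 ratio of Tlr4 over Tlr2 reversed to 1.38. The median SD between libraries was 0.071 without the 3 libraries with the fewest reads, 0.113 with no minimum mean and 0.082 with a minimum of 200. The number of gene pairs that passed was 0 to 0 when 1 library was left out and 0 without 3 libraries, because 5 libraries cannot give a p below 0.0625 and 3 cannot go below 0.25. No paired analysis was possible because there is 1 group and the replicate numbers follow accession order. Values of genes with few reads moved most: Pparg had a mean of 3.68, and 1.98 without library 895, C1qb had 0.364, and 0.216 without library 895, and Cx3cr1 had 2.1, and 1.39 without library 893. Depth limits the spread of most genes, since below a mean of 1000 the median SD was close to that of counting (0.346 and 0.333 between 10 and 50).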
